A study of Mus musculus with 6 samples.

Results

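The amino acid transporter genes examined here are the symbols of the expression table that start with Slc1a, Slc3a, Slc6a, Slc7a, Slc36a, Slc38a or Slc43a. There are 63 such symbols among the 38216 different symbols of the table. The set is defined by name and not by values, although earlier results of these data were known when it was chosen. RNA was measured in CD4+ T cells sorted from spleens of C57BL/6 mice at postnatal day 28. All mice were naive and carried an IL21-VFP reporter, in which the fluorescent protein VFP marks cells that transcribe Il21, the gene of a cytokine of follicular helper T cells. ACT IL21 is the pool of cells with VFP and with ICOS, a costimulatory receptor of activated T cells, ACT is the pool with ICOS and without VFP, and N is the pool with neither. Each pool was sequenced as 2 libraries on a MiSeq, and nothing in the labels says that these came from separate animals, so p-values measure the spread between libraries, which may be technical. A cell that fluoresces reports transcription of Il21 and not its protein. Values are TPM, in which each library sums to the same total and a level is per transcript length, so levels may be compared between genes, but the number of reads behind a value is unknown.

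Amino acid transporters bring glutamine, leucine, arginine, cystine and other amino acids into the cell, and some move them out of the lysosome. T cells are known to raise several of them when the T cell receptor is engaged. The heavy chain Slc3a2 (CD98) carries light chains of the Slc7a family, such as Slc7a5 (LAT1), to the membrane, where Slc7a5 takes up leucine in exchange for another amino acid. Slc1a5 (ASCT2) and the Slc38a family members Slc38a1 and Slc38a2 take up glutamine and other small neutral amino acids together with sodium. Leucine and arginine in the cell act on the kinase complex mTORC1, which drives protein synthesis and growth.

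The labels were first set against their markers. Icos was at 185 and 227 TPM in ACT IL21, at 254 and 241 TPM in ACT, against 35.67 and 31.92 TPM in N. Il21 was at 44.48 and 51.87 TPM in ACT IL21, listed at 0 and at 1.26 TPM in ACT, and listed at 0 in both N libraries. The 7 T cell markers summed to between 3480 and 4720 TPM in every library. Of the markers of other cells, those of natural killer and NKT cells summed to 573 and 595 TPM in ACT, against 54.3 and 63.9 TPM in N, and to 58.0 and 72.2 TPM in ACT IL21. The members of this sum differed between ACT IL21 and N in both directions. Klrb1c was at 25.49 and 25.7 TPM in ACT IL21, against 2.56 and 2.38 TPM in N. Klrd1 was at 6.42 and 13.87 TPM in ACT IL21, against 33.29 and 38.02 TPM in N. Erythroid markers summed to 30.1 to 99.9 TPM in ACT IL21, 18.1 to 45.5 TPM in ACT and 5.79 to 45.8 TPM in N. B cell markers summed to 8.03 to 8.58 TPM in ACT IL21, 16.7 to 20.4 TPM in ACT and 3.11 to 5.4 TPM in N, with Pax5 and Blk at 0 throughout and Cd74 as the main member. Granulocyte and mast cell markers reached at most 1.49 TPM in sum in a library, and platelet markers at most 4.27 TPM. Myeloid and dendritic cell markers summed to 29.9 to 74.2 TPM over all libraries, of which Cst3 made up most, while Cd14 and Siglech were at 0. Of the CD8 genes Cd8a was at 0.36 TPM or less and Cd8b1 at 3.41 to 26.68 TPM. The plasma cell sum was nearly all Xbp1, with Mzb1 at 0, and the stromal and endothelial sum nearly all Pecam1, with Col1a2 and Col3a1 at 0. Spearman correlations between libraries, which share nearly all of their genes, were 0.941 to 0.971 within pools and 0.904 to 0.931 between them. In bulk RNA of this kind, fewer cells of a type and less RNA per cell cannot be told apart.

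Of the 63 symbols, 22 were listed at 0 in all 6 libraries, 19 had some value without reaching 1 TPM in at least 2 libraries, and 22 passed that filter and were tested. All 3 Slc43a symbols passed, as did 6 of 11 Slc38a, 6 of 16 Slc7a, 2 of 4 Slc36a, 1 of 2 Slc3a, 3 of 20 Slc6a and 1 of 7 Slc1a symbols. The Slc6a family, best known for transporters of neurotransmitters, supplied 11 of the 22 symbols listed at 0 throughout. Among symbols left untested the highest value was 2.54 TPM, for Slc38a5 in ACT IL21 replicate 1, and Slc7a3, Slc1a6 and Slc6a13 were the others to reach 1 TPM in a library. The glutamate transporter genes Slc1a1, Slc1a2 and Slc1a7 were at 0 in every library, and Slc1a3 had a single value of 0.23 TPM. Slc7a6os, one of the 22 tested, is not a transporter gene: its name records that it lies on the strand opposite to Slc7a6.

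Slc38a6 had by far the highest level of the group. It was at 425.87 and 509.85 TPM in ACT IL21, at 318.19 and 435.01 TPM in ACT, against 438.99 and 515.58 TPM in N. The ACT IL21 and N libraries overlapped, and both ACT libraries lay below both N libraries, the higher of them narrowly. The log2 fold change in ACT against N was -0.35 (95% interval -0.79 to 0.09) and did not pass (limma adjusted p = 0.379). With a mean of 440.6 TPM over all libraries it ranked 258 of the 13311 genes tested. The next transporter, Slc38a2, ranked 1131, and Slc38a1 and Slc1a5 ranked 2289 and 2295. Slc38a6 made up 44.0% and 48.7% of the summed transporter TPM in ACT IL21, 36.6% and 45.5% in ACT and 47.8% and 52.7% in N. The gene lies on chromosome 12, 73286779 to 73354049 (GRCm38, GENCODE M21, plus strand, protein-coding), 68 bases from the start of Trmt5, which runs the other way and was at 19.14 to 22.6 TPM over the libraries. GENCODE M21 gives Slc38a6 8 transcripts of 359 to 3927 bases. Which transcript lengths entered the deposited values is not stated, and a level per length depends on them.

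**Figure D1:**
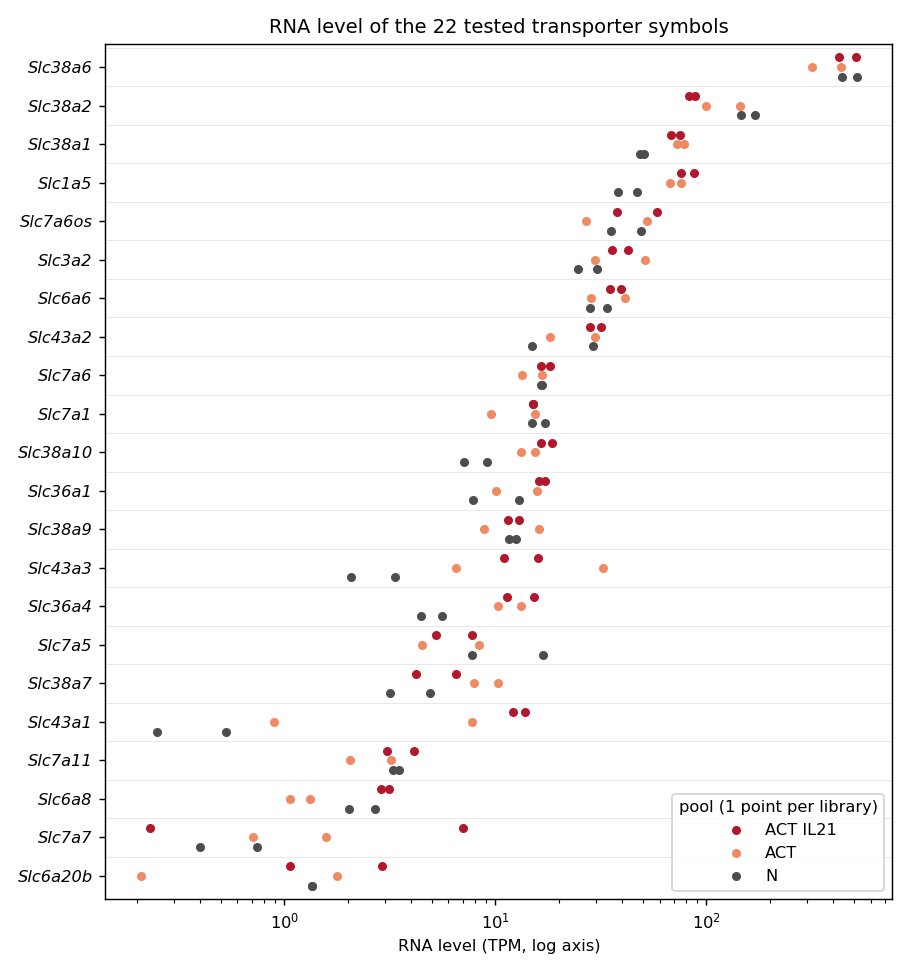
RNA level of each of the 22 tested symbols in TPM on a log axis, 1 point per library, with ACT IL21 in red above ACT in orange and N in grey. The levels span from 0.21 TPM for Slc6a20b in ACT replicate 1 to 515.58 TPM for Slc38a6 in N replicate 2, and Slc43a1 shows the widest separation of ACT IL21 from N.

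Summed over the 63 symbols, transporter RNA overlapped between N and each of the ICOS+ pools. The sum was 969.0 and 1046.8 TPM in ACT IL21, 868.9 and 956.3 TPM in ACT and 919.2 and 977.7 TPM in N. Without Slc38a6 the sums were 543.1 and 536.94 TPM in ACT IL21, 550.71 and 521.33 TPM in ACT and 480.24 and 462.09 TPM in N, so that all 4 libraries of ICOS+ cells lay above both N libraries. The Slc1a sum, nearly all of it Slc1a5, was 77.75 and 87.65 TPM in ACT IL21, 76.23 and 67.61 TPM in ACT and 47.28 and 38.69 TPM in N. Slc36a symbols summed to 33.32 and 27.64 TPM in ACT IL21, 26.08 and 23.36 TPM in ACT and 18.61 and 12.42 TPM in N. In the Slc7a family both ACT libraries lay below those of the other pools and ACT IL21 overlapped N, at 99.13 and 90.6 TPM in ACT IL21, 72.44 and 84.62 TPM in ACT and 90.68 and 95.09 TPM in N. The Slc7a sum includes Slc7a6os, which is not a transporter gene and was at 26.87 to 58.64 TPM. The separation of ACT from ACT IL21 depends on Slc7a6os, since without it these 2 pools overlap. The Slc43a, Slc3a and Slc6a sums overlapped N in ACT and lay above N in ACT IL21. The Slc38a sum overlapped N in both ICOS+ pools. The separation of the total from N depends on leaving out Slc38a6, the highest member in these data. These sums are described without a test.

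**Figure D2:**
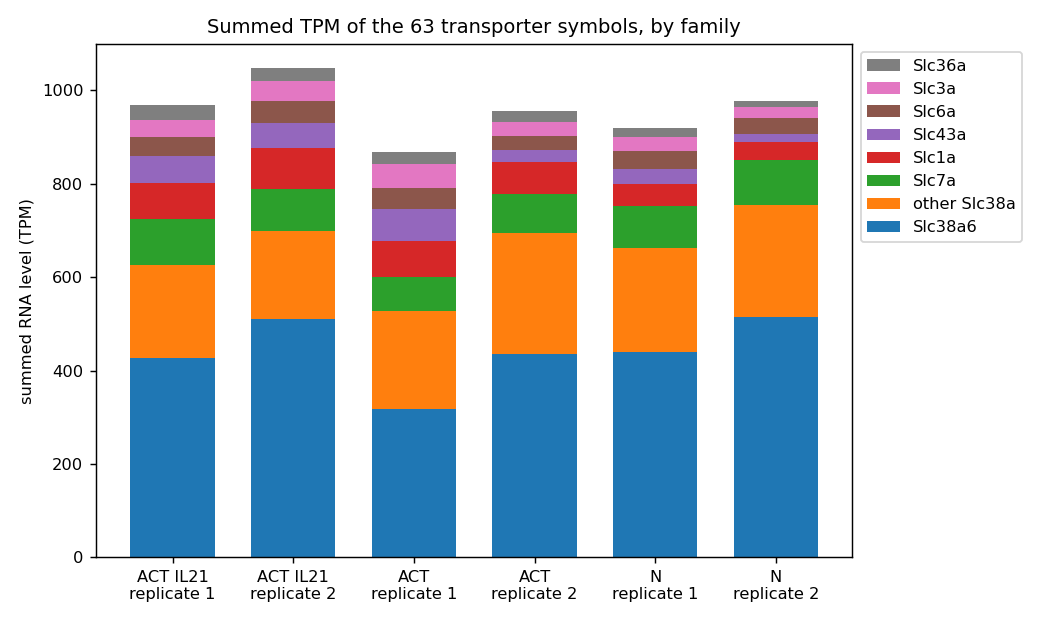
Summed TPM of the 63 symbols in each library, stacked by family, with Slc38a6 drawn apart from the other Slc38a symbols. Slc38a6 is the largest block in all 6 bars, with 36.6% of the sum in ACT replicate 1 as its lowest share.

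Promoter windows were read for motifs where a gene had one. Of the tested symbols, Slc1a5, Slc38a1, Slc43a3, Slc6a6, Slc6a8 and Slc7a5 had none and were not searched. RefSeq windows of 300 bases, 250 before and 50 from the transcript start on (GRCm38.p6), were at hand for 45 of the 63 symbols and 16 of the 22 tested. They were searched on both strands for the E-box CACGTG, which Myc and the lysosomal regulators of the TFE family can bind, for the cAMP response element TGACGTCA, and for TGATGNAA, a core of the amino acid response element to which ATF4 binds. The motifs were chosen with the sequences in view. The E-box was in 3 of the 16 windows of tested symbols (Slc36a1, Slc38a7 and Slc43a1), and in 7.24% of the 27025 windows of all genes. The amino acid response core was in 2 of 16 (Slc7a11 and Slc7a7) and in 4.06% of all windows. The cAMP response element was in 1 of 16 (Slc38a6) and in 1.88% of all windows. By position this match lies in the gap between Slc38a6 and Trmt5, which runs the other way, and so stands before both genes. A match is only a match of letters. Only 1 window per symbol was searched, so other transcript starts of a gene were not. The Slc43a1 window lies inside the GENCODE M21 span of the gene, which begins at 84838850. Shown 5′ to 3′ with the motif in capitals are Slc43a1, which passed the test in ACT IL21 against N (chr2:84840073-84840372, plus strand), Slc36a1, with the E-box in 2 places (chr11:55204090-55204389, plus strand), Slc38a6, the most abundant (chr12:73286598-73286897, plus strand), and Slc7a11, with the amino acid response core in 2 places, once on each strand (chr3:50443564-50443863, minus strand). In none of the 16 windows did motifs overlap.
Slc43a1: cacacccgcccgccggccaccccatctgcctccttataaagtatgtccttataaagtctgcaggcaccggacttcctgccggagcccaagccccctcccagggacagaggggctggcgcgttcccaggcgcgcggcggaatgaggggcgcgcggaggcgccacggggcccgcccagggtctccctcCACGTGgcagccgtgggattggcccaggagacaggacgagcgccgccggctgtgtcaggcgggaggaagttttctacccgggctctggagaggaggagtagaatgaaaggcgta
Slc36a1: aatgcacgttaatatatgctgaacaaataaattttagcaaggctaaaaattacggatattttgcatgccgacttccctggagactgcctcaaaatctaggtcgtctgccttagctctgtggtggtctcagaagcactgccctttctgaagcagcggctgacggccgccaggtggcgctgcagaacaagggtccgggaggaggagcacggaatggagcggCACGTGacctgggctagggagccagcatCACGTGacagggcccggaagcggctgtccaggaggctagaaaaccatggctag
Slc38a6: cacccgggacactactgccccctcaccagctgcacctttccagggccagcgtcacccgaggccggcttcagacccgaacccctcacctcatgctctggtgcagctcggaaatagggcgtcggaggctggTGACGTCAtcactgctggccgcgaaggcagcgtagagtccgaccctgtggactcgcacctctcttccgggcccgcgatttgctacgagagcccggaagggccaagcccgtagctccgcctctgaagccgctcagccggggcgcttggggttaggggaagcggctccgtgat
Slc7a11: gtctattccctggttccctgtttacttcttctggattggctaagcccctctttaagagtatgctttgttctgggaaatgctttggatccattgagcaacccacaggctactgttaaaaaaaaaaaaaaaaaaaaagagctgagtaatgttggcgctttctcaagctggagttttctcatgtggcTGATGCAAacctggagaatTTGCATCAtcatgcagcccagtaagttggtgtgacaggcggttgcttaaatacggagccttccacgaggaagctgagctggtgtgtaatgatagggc

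The comparison of ACT IL21 with N sets cells with both sort markers against cells with neither. Slc1a5 and Slc43a1 rose in ACT IL21 and no transporter fell. These are 2 of the 22 tested symbols, or 9.09%, where 3.82% of all 13311 genes rose and 1.26% fell (5.09% in all). With so few called, the share says nothing particular to the transporters. An unadjusted p under 0.05 was reached by 7 of the 22, or 31.8%, and by 18.7% of all genes. Without either ACT IL21 library or either N library in turn, no transporter passed. The median log2 fold change of the 22 was 0.303, beside 0.0996 for all genes tested, and was 0.189 without ACT IL21 replicate 2, 0.521 without ACT IL21 replicate 1 and 0.475 without N replicate 1. The libraries did not overlap for 10 symbols higher and 1 lower in ACT IL21, 45.5% and 4.55% of the 22, where 31.5% of all genes were higher without overlap and 19.9% lower (51.4% in all). Slc43a1 entered the tested set through libraries of ICOS+ cells alone, since both N values are under 1 TPM.

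Slc1a5, the glutamine transporter gene (chromosome 7, 16781340 to 16798274, GRCm38, plus strand, protein-coding), was at 75.58 and 87.21 TPM in ACT IL21, at 76.04 and 67.53 TPM in ACT, against 46.82 and 38.30 TPM in N. Every library of ICOS+ cells lay above every N library, and the ACT IL21 and ACT libraries overlapped. The means were 81.4 ± 8.22 TPM in ACT IL21, 71.8 ± 6.02 TPM in ACT and 42.6 ± 6.03 TPM in N (SD, n = 2 each). On the log2(TPM + 1) scale Slc1a5 rose by 0.92 ± 0.19 (SE) in ACT IL21 against N, with an adjusted p of 0.0316 by limma with Benjamini-Hochberg adjustment over all genes. The call ended with an ACT IL21 or N library left out (adjusted p from 0.12 without N replicate 1 to 0.276 without N replicate 2), without a filter on low values (0.061), with quantile normalization (0.058) and without the intensity trend (0.111). In ACT against N the difference was 0.75 with a limma adjusted p of 0.064, and in ACT IL21 against ACT it was 0.18 (95% interval -0.26 to 0.61).

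Slc43a1 encodes LAT3, which lets leucine and other large neutral amino acids pass without sodium. The gene lies on chromosome 2, 84838850 to 84863594 (GRCm38, plus strand, protein-coding). It was at 13.79 and 12.1 TPM in ACT IL21, at 7.75 and 0.89 TPM in ACT, against 0.53 and 0.25 TPM in N. The 3 pools did not overlap, but the 2 ACT libraries lay far apart. Slc43a1 rose by 3.33 ± 0.69 (SE) on the log2 scale in ACT IL21 against N (limma adjusted p = 0.034). The size of this change depends on the pseudocount, with 4.79 at 0.1 and 1.73 at 5. Its call ended with any ACT IL21 or N library left out (adjusted p from 0.196 to 0.272), without a filter on low values (0.112) and without the intensity trend (0.0742). In ACT IL21 against ACT the difference was 1.78 (95% interval 0.18 to 3.37), with a limma adjusted p of 0.285. ACT against N gave 1.56 (limma adjusted p = 0.283), and passed without ACT replicate 2 (adjusted p = 0.035). Slc43a1 is also known from red cell precursors, so the erythroid markers are set beside it. The 6 erythroid markers in the table, none of them at 0 in both libraries of a pool, summed to 99.9 and 30.1 TPM in ACT IL21 replicates 1 and 2, to 45.5 and 18.1 TPM in ACT and to 45.8 and 5.79 TPM in N. In each of the 3 pools the library with the higher erythroid sum also had the higher Slc43a1. Across pools the order of the sum, which was mostly Hba-a1 and Hba-a2, differed from that of Slc43a1. N replicate 1 had an erythroid sum of 45.8 TPM and Slc43a1 at 0.53 TPM, and ACT IL21 replicate 2 had 30.1 and 12.1 TPM. Of the 6 markers Slc4a1 alone lay higher in ACT IL21 than in both other pools without overlap. Slc4a1 was at 6.02 and 5.49 TPM in ACT IL21, at 1.25 and 0.45 TPM in ACT, against 1.3 and 0.34 TPM in N. The part of these markers in the result was not tested.

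Slc43a3, a relative that carries purine bases in human cells, lies 72984 bases from Slc43a1 on the same strand of chromosome 2, with 1 protein-coding gene, Rtn4rl2, between them. It was at 15.98 and 10.94 TPM in ACT IL21, at 32.53 and 6.49 TPM in ACT, against 2.07 and 3.35 TPM in N. Both neighbours were higher in ACT replicate 1 than in ACT replicate 2, and the ACT IL21 and ACT libraries of Slc43a3 overlapped. Slc43a3 had a log2 fold change of 1.96 in ACT IL21 against N (95% interval 0.44 to 3.49, limma adjusted p = 0.157) and of 2.12 in ACT against N (0.59 to 3.64, adjusted p = 0.124). One ACT library decides the size of the second value, which was 1.04 without ACT replicate 1 and 3.2 without ACT replicate 2. It passed in ACT IL21 against N in a fit of these 2 pools alone (adjusted p = 0.043) and without either ACT library. Slc43a2, the gene of LAT4, was at 28.05 and 31.79 TPM in ACT IL21, at 29.66 and 18.17 TPM in ACT, against 29.07 and 14.86 TPM in N. Its pools overlapped.

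**Figure D3:**
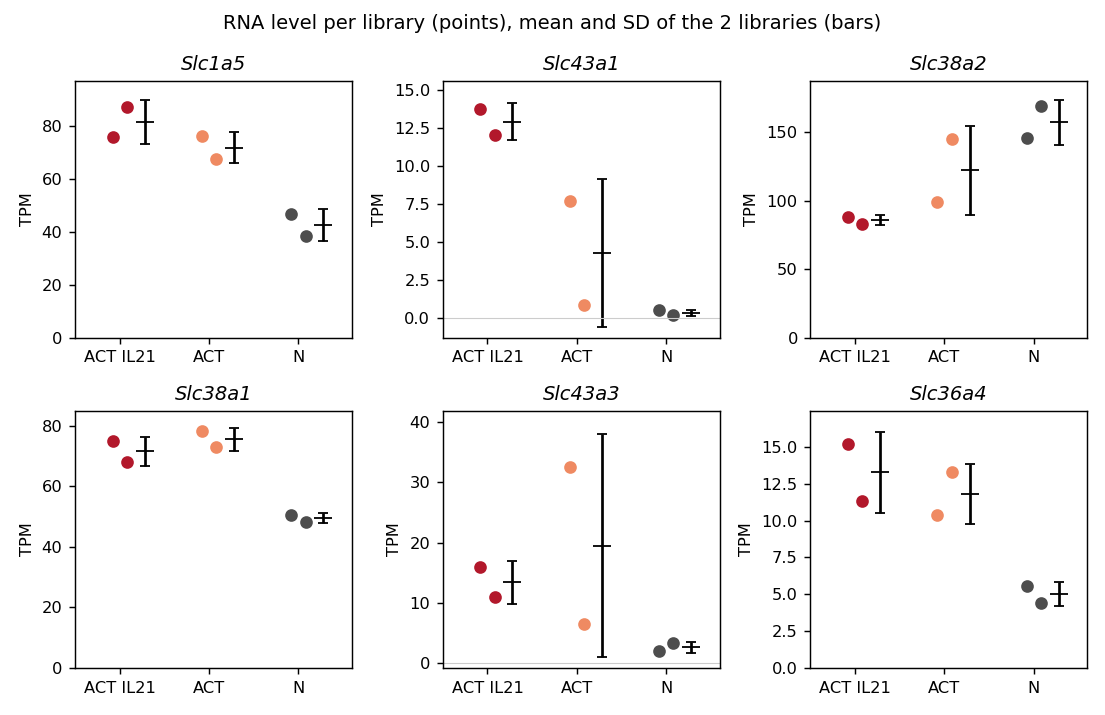
TPM of 6 transporter genes per library (points), with the mean and SD of the 2 libraries of each pool (black bars). For Slc1a5, Slc38a1, Slc43a3 and Slc36a4 all ICOS+ libraries lie above both N libraries, and Slc38a2 lies lowest in ACT IL21, at 88.38 and 83.15 TPM.

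The sodium-coupled genes Slc38a1 and Slc38a2 are neighbours on chromosome 15, 44478 bases apart with no protein-coding gene between them, and their differences from N had opposite signs. Slc38a2, the gene of SNAT2, which cells are known to raise when amino acids are short (96687392 to 96699730, minus strand), was at 88.38 and 83.15 TPM in ACT IL21, at 99.48 and 145.1 TPM in ACT, against 145.74 and 169.21 TPM in N. ACT IL21 was below ACT and ACT below N in every library, although the higher ACT library came within 1 TPM of the lower N library. The log2 fold change was -0.87 ± 0.20 (SE) in ACT IL21 against N, just short of the threshold with a limma adjusted p of 0.0547. It passed in 7 of 15 alternative fits, among them both rescalings (adjusted p = 0.0466 and 0.0334), and its adjusted p ranged from 0.0255 to 0.384. ACT IL21 against ACT gave -0.48 (95% interval -0.95 to -0.01, limma adjusted p = 0.327), and ACT against N gave -0.38 (-0.86 to 0.09). Slc38a1, the gene of SNAT1 (96571418 to 96642913, minus strand), was at 74.93 and 68.18 TPM in ACT IL21, at 78.17 and 72.95 TPM in ACT, against 50.72 and 48.26 TPM in N. Both ICOS+ pools lay above N without overlap, by 0.52 in ACT IL21 (limma adjusted p = 0.135) and 0.60 in ACT (adjusted p = 0.085), and neither passed.

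The heavy chain Slc3a2 and its light chains did not pass in any comparison. Slc3a2 (chromosome 19, 8706882 to 8723369, minus strand) was at 35.81 and 42.37 TPM in ACT IL21, at 51.07 and 29.76 TPM in ACT, against 30.48 and 24.54 TPM in N. The ACT IL21 libraries lay above those of N and within the span of ACT, with a log2 fold change of 0.49 against N (95% interval -0.17 to 1.16). Slc7a5, the leucine-carrying light chain (chromosome 8, 121881150 to 121907694, minus strand), was at 5.22 and 7.75 TPM in ACT IL21, at 8.35 and 4.48 TPM in ACT, against 16.91 and 7.75 TPM in N. N replicate 1 stood highest and the pools overlapped or touched. The log2 fold change of Slc7a5 was -0.76 in ACT IL21 against N (95% interval -1.87 to 0.35) and -0.81 in ACT against N (-1.92 to 0.30), so these data allow a fall of nearly 2 log2 units as well as a small rise. The level of Slc7a5 per level of Slc3a2 was 0.146 and 0.183 in ACT IL21, 0.164 and 0.151 in ACT and 0.555 and 0.316 in N, with no overlap between N and the ICOS+ pools, a ratio formed after seeing the values and given without a test.

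None of the other light chains passed, and the width of their intervals differed from gene to gene. Slc7a6, which exchanges arginine for glutamine, was at 16.42 and 18.18 TPM in ACT IL21, at 16.56 and 13.44 TPM in ACT, against 16.69 and 16.44 TPM in N. Its intervals reached from -0.56 to 0.67 in ACT IL21 against N and from -0.76 to 0.47 in ACT against N. Slc7a11, the cystine and glutamate exchanger gene whose promoter is printed above, was at 3.08 and 4.1 TPM in ACT IL21, at 2.04 and 3.2 TPM in ACT, against 3.49 and 3.29 TPM in N. Slc7a7 was low in all but ACT IL21 replicate 2, at 0.23 and 7.05 TPM in ACT IL21, 1.58 and 0.71 TPM in ACT and 0.4 and 0.74 TPM in N. Its log2 fold change in ACT IL21 against N was 1.01 with a 95% interval of -0.89 to 2.92. Its exons share 232 of 3315 bases with Oxa1l on the other strand, which was at 28.41 to 33.71 TPM, and since the strand setting is not given, reads there cannot be told apart. Slc7a1, the arginine and lysine transporter gene, needs no heavy chain and was at 15.15 and 15.17 TPM in ACT IL21, at 15.48 and 9.55 TPM in ACT, against 17.22 and 14.98 TPM in N. Slc7a6os was at 58.64 and 37.82 TPM in ACT IL21, at 26.87 and 52.58 TPM in ACT, against 35.38 and 49.18 TPM in N, with every pool overlapping the others.

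None of the Slc36a and lysosomal carriers passed, and neither did Slc38a10. Slc36a4 was at 15.21 and 11.35 TPM in ACT IL21, at 10.35 and 13.27 TPM in ACT, against 5.57 and 4.43 TPM in N. All 4 ICOS+ libraries lay above N, by 1.24 in ACT IL21 (limma adjusted p = 0.0938) and 1.09 in ACT (adjusted p = 0.129). Slc38a10 was at 16.38 and 18.61 TPM in ACT IL21, at 15.45 and 13.27 TPM in ACT, against 9.14 and 7.14 TPM in N. It too separated from N in both pools, by 1.02 in ACT IL21 (limma adjusted p = 0.108) and 0.75 in ACT (adjusted p = 0.224). Slc36a1, which moves amino acids with protons and is found in lysosomes, was at 17.13 and 16.15 TPM in ACT IL21, at 15.73 and 10.09 TPM in ACT, against 12.91 and 7.81 TPM in N. Its ACT libraries overlapped those of N and its ACT IL21 libraries did not. Slc38a7 was highest in ACT, at 4.21 and 6.54 TPM in ACT IL21, 7.94 and 10.31 TPM in ACT and 4.89 and 3.17 TPM in N. Slc38a9, the lysosomal arginine sensor that acts on mTORC1, was at 12.92 and 11.45 TPM in ACT IL21, at 8.88 and 16.15 TPM in ACT, against 12.5 and 11.57 TPM in N. Its means over the pools lay between 12.04 and 12.52 TPM, and the 95% interval was -0.80 to 0.83 in ACT IL21 against N and -0.81 to 0.81 in ACT against N.

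Of the Slc6a family 3 genes could be tested. Slc6a6, the taurine transporter gene, was the most abundant at 34.79 and 39.6 TPM in ACT IL21, 40.99 and 28.31 TPM in ACT and 33.84 and 28.05 TPM in N. Slc6a8, the creatine transporter gene, was lowest in ACT, at 2.86 and 3.12 TPM in ACT IL21, 1.06 and 1.32 TPM in ACT and 2.03 and 2.69 TPM in N. It did not overlap between any 2 pools, and its log2 fold change in ACT IL21 against ACT was 0.87 (95% interval -0.11 to 1.84, limma adjusted p = 0.395). Slc6a20b was at 1.07 and 2.9 TPM in ACT IL21, at 0.21 and 1.77 TPM in ACT, against 1.36 TPM in both N libraries. It shares 1800 of 8538 exon bases with Sacm1l on the other strand, which was at 38.41 to 65.46 TPM, and it has a near copy in Slc6a20a, so its values are uncertain.

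ACT and N differ in ICOS and share the absence of VFP. No transporter passed by limma in ACT against N, 0 of 22, where 4.15% of all genes rose and 1.43% fell (5.58% in all). An unadjusted p under 0.05 was reached by 6 of the 22, or 27.3%, and by 18.6% of all genes. These were Slc1a5, Slc38a1, Slc43a3, Slc36a4, Slc38a10 and Slc38a7, each higher in ACT than in N in both libraries. The libraries did not overlap for 7 symbols higher and 4 lower in ACT, 31.8% and 18.2% of the 22, where 25.2% of all genes were higher without overlap and 21.9% lower (47% in all). The median log2 fold change of the 22 was 0.146, beside 0.0229 for all genes. Without ACT replicate 2 Slc43a1 and Slc43a3 passed and the median was 0.445, while the median was 0.272 without N replicate 1 and -0.0101 without N replicate 2. The 2 ACT libraries differed more among the transporters than those of the other pools: the median difference between the libraries of a pool was 0.19 log2 units in ACT IL21, 0.57 in ACT and 0.28 in N, beside 0.30, 0.41 and 0.27 for all genes tested. Both comparisons with N use the same N libraries, and are not independent of each other. The 10 natural killer and NKT markers summed to 573 and 595 TPM in ACT, against 54.3 and 63.9 TPM in N. None was at 0 in both ACT libraries, and Xcl1 and Klrb1c were the highest in ACT. Prf1 went the other way, at 0.92 and 5.76 TPM in ACT against 7.27 and 7.93 TPM in N. Ncr1 and Tyrobp overlapped between ACT and N. The part of these markers in the transporter values was not tested.

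**Figure D4:**
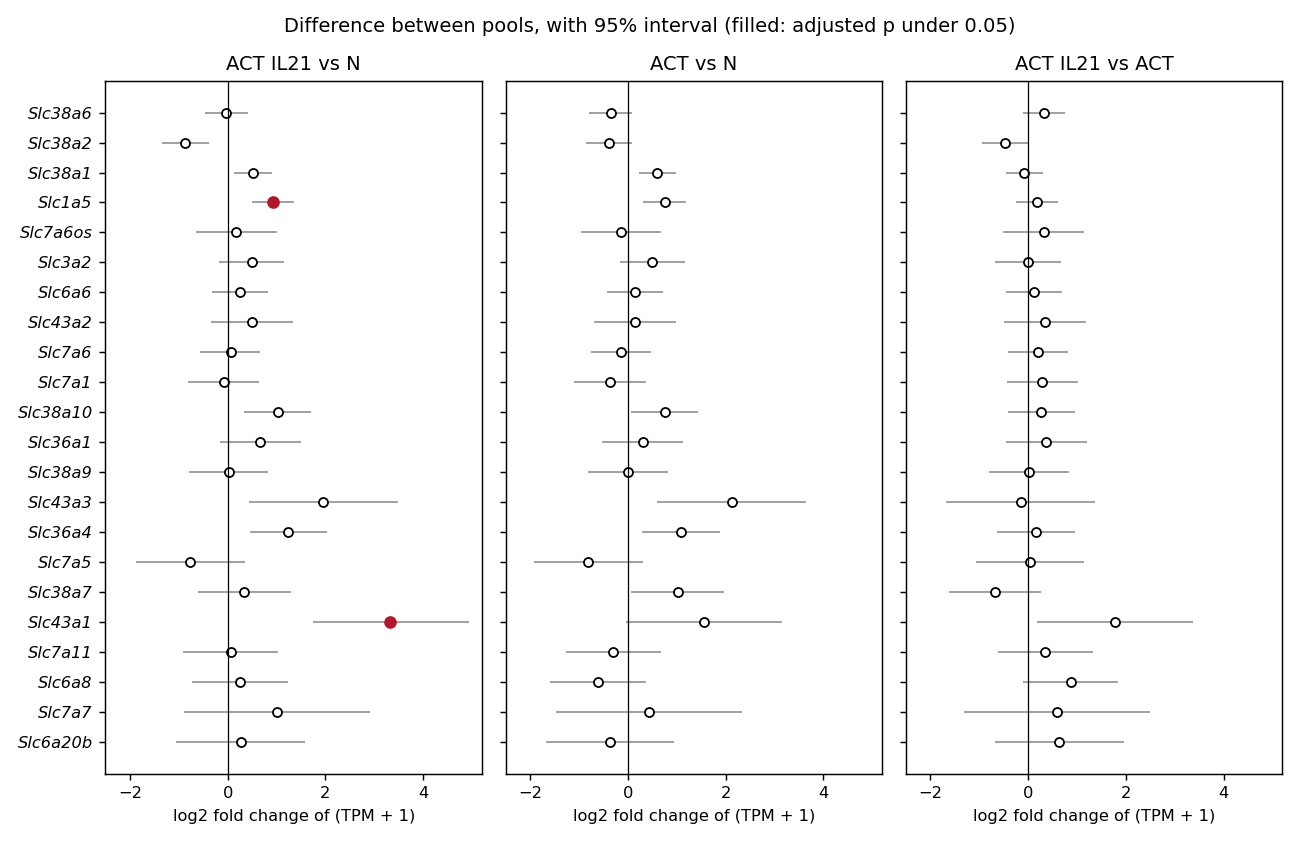
Log2 fold change of (TPM + 1) with its 95% interval for the 22 tested symbols, in 3 comparisons, each the first named pool over the second. Filled points passed an adjusted p of 0.05: Slc1a5 at 0.92 and Slc43a1 at 3.33 in ACT IL21 against N, and none in the other panels.

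The comparison of ACT IL21 with ACT sets reporter-positive against reporter-negative cells among ICOS+ cells. No transporter passed by limma, 0 of 22, where 0.796% of all genes rose and 1.15% fell (1.95% in all). Slc43a1 and Slc38a2 were the 2 with an unadjusted p under 0.05, or 9.09%, which 14.9% of all genes reached. The libraries did not overlap for 4 symbols higher in ACT IL21 (Slc43a1, Slc6a8, Slc36a1 and Slc38a10) and 2 lower (Slc38a2 and Slc38a7), where 24.5% of all genes were higher without overlap and 17.3% lower. That is 27.3% of the 22 and 41.8% of all genes. The median was 0.234, beside 0.0759 for all genes, and was 0.0846 without ACT replicate 2, 0.356 without ACT replicate 1 and 0.153 without ACT IL21 replicate 2. For the abundant transporter genes the intervals were narrow: -0.46 to 0.30 log2 units for Slc38a1, -0.26 to 0.61 for Slc1a5 and -0.11 to 0.76 for Slc38a6. For Slc38a2, also abundant, the interval was -0.95 to -0.01, wholly below 0, with a limma adjusted p of 0.327. For Slc43a3 the interval was -1.68 to 1.37, and it says little.

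Genes around the transporters were read from lists of amino acid sensing, response and metabolism. Over all genes tested 5.09% passed in ACT IL21 against N, 5.58% in ACT against N and 1.95% in ACT IL21 against ACT, and the medians were 0.0996, 0.0229 and 0.0759. Of 39 tested genes of amino acid sensing by mTORC1, Sesn1 and Rps6 fell in ACT IL21 against N, none passed in ACT against N, and Sesn1 fell in ACT IL21 against ACT. These are 5.13%, 0% and 2.56% of the list. Sesn1, a member of the Sestrin family of mTORC1 inhibitors, was at 49.85 and 38.05 TPM in ACT IL21, at 133.88 and 145.78 TPM in ACT, against 111.22 and 129.74 TPM in N. Its log2 fold change was -1.44 in ACT IL21 against N (limma adjusted p = 0.00511) and -1.66 in ACT IL21 against ACT (adjusted p = 0.00661). Rps6, a ribosomal protein gene, was at 279.23 and 265.21 TPM in ACT IL21, at 287.18 and 352.27 TPM in ACT, against 476.64 and 428.98 TPM in N, and fell by 0.73 in ACT IL21 against N (limma adjusted p = 0.0343). The list's median was 0.139 in ACT IL21 against N, 0.0827 in ACT against N and 0.199 in ACT IL21 against ACT, beside the all-gene values above.

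Of 22 tested genes of the amino acid response, Ddit4 alone rose in ACT IL21 against N, and none passed in the other comparisons. That is 4.55% of the list, where 5.09% of all genes passed (3.82% rose). Ddit4, an mTORC1 inhibitor gene raised by stress, was at 25.47 and 26.85 TPM in ACT IL21, at 13.61 and 16.73 TPM in ACT, against 9.78 and 11.27 TPM in N (1.24 against N, limma adjusted p = 0.0404). It passed in 7 of 15 alternatives and did not pass with median-of-ratios rescaling (0.0606), quantile normalization (0.0849), no filter (0.0698) or no intensity trend (0.0505). The list's median was 0.0941 in ACT IL21 against N (all genes 0.0996), 0.128 in ACT against N (0.0229) and -0.0645 in ACT IL21 against ACT (0.0759). Of 30 genes of amino acid metabolism, Odc1, which encodes the ornithine decarboxylase of polyamine synthesis, rose in both ICOS+ pools. It was the 1 gene of the list to pass, or 3.33% in each comparison with N, where 5.09% of all genes passed in ACT IL21 and 5.58% in ACT. Odc1 was at 109.29 and 137.42 TPM in ACT IL21, at 136.1 and 188.17 TPM in ACT, against 47.97 and 54.93 TPM in N, with limma adjusted p of 0.0151 for ACT IL21 and 0.00387 for ACT. The metabolism list's median was 0.164 in ACT IL21 against N (all genes 0.0996), 0.0703 in ACT against N (0.0229) and 0.0817 in ACT IL21 against ACT (0.0759).

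Of 13 tested carriers of amino acids outside the named families, Slc16a10, the aromatic amino acid transporter gene, was the 1 to pass. That is 7.69% of the list in ACT against N and in ACT IL21 against ACT, where 5.58% and 1.95% of all genes passed, and a single gene carries the share. It was at 4.17 and 4.47 TPM in ACT IL21, at 22.44 and 16.2 TPM in ACT, against 6.53 and 5.7 TPM in N. It rose in ACT against N by 1.5 (limma adjusted p = 0.0486) and was lower in ACT IL21 than in ACT by a log2 fold change of -1.92 (adjusted p = 0.0364), and neither call held with any of the 6 libraries left out. The call in ACT against N also ended with the replicate block (0.057), a pseudocount of 0.1 (0.0554), no filter (0.103), quantile normalization (0.0555) and the 2 pools alone (0.0868), and that in ACT IL21 against ACT with no filter (0.0942) and the 2 pools alone (0.124). The carriers' median was -0.123 in ACT IL21 against N (all genes 0.0996), -0.0387 in ACT against N (0.0229) and 0.115 in ACT IL21 against ACT (0.0759).

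Among 9 regulators of transporters, Hif1a rose in ACT IL21 and Myc fell there against N. With the genes below, 2 of the 9 passed in ACT IL21 against N (5.09% of all genes), 3 in ACT against N (5.58%) and 1 in ACT IL21 against ACT (1.95%), a list too short to read a share from. Myc, known to drive transporter genes in activated T cells, was at 24.16 and 22.13 TPM in ACT IL21, at 50.87 and 37.86 TPM in ACT, against 81.69 and 48.72 TPM in N (-1.41 in ACT IL21 against N, limma adjusted p = 0.0297). Hif1a was at 191.91 and 180.74 TPM in ACT IL21, at 121.2 and 154.67 TPM in ACT, against 69.75 and 86.8 TPM in N (adjusted p = 0.00853 for ACT IL21 and 0.0455 for ACT). Nedd4, a ubiquitin ligase gene of a family that removes transporters from the membrane, was high in ACT alone, at 3.85 and 3.33 TPM in ACT IL21, 56.13 and 52.8 TPM in ACT and 2.32 and 2.25 TPM in N. Its log2 fold change was 4.08 in ACT against N (limma adjusted p = 0.000509) and -3.60 in ACT IL21 against ACT (adjusted p = 0.00324). Sgk1, a kinase gene, was at 32.9 and 34.14 TPM in ACT IL21, at 12.93 and 24.49 TPM in ACT, against 63.77 and 62.18 TPM in N, and fell in ACT against N (-1.76, limma adjusted p = 0.013). The regulators' median was -0.651 in ACT IL21 against N (all genes 0.0996), 0.0665 in ACT against N (0.0229) and -0.0804 in ACT IL21 against ACT (0.0759). Of the list genes, the calls in ACT IL21 against N (Sesn1, Rps6, Ddit4, Odc1, Hif1a and Myc) each ended with any ACT IL21 or N library left out. Without the intensity trend those of Hif1a (0.0619), Odc1 (0.0779), Myc (0.0897) and Rps6 (0.172) ended as well, and without a filter those of Rps6 (0.0755) and Myc (0.0808). In ACT against N Nedd4 kept its call without each of the 6 libraries, Odc1 lost it without N replicate 1, Sgk1 kept it without either ACT library and lost it without any of the other 4, and Hif1a lost it without any of the 6. Hif1a passed there in 3 of 15 alternatives, and Sgk1 did not pass with the 2 pools alone (0.0621) or without the intensity trend (0.0511). In ACT IL21 against ACT Nedd4 lost its call without either ACT IL21 library, and Sesn1 without any ACT IL21 or ACT library.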

How the data were processed

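The authors deposited 1 table of TPM per gene and library. Trimmomatic, Bowtie, RSEM and the build GRCm38 are named, per the submitters' processing notes, without versions. RNA was extracted with RNeasy kits and amplified with the NuGEN Ovation kit after poly-A enrichment, per the labels' protocols. The annotation and the strand setting are not stated there. RSEM shares reads among similar genes by estimation, and a fixed total ties each value to all others. Depth is unknown, so no counting interval is given.

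From the deposited TPM, 139 repeated entries were summed into their symbol, and the 13311 genes that reached 1 TPM in 2 or more of the 6 libraries were tested with limma 3.58.1 (R 4.3.3) on log2(TPM + 1). The fit used all 6 libraries, a term for the pool, an intensity trend, two-sided tests and Benjamini-Hochberg adjustment over all genes in each comparison, at 0.05. It had 3 residual and 4.841 prior degrees of freedom, and was tested on simulated data. Fold changes on this scale understate the change of low genes. The members and lists were chosen with earlier results of these data known. Named transporters were those past the threshold, those with a mean of at least 20 TPM in a pool and 8 fixed genes; the other tested symbols are described too, chosen after their values were seen. Of each list, the genes past the threshold are named. Alternatives changed the pseudocount, filter, scaling, samples, trend and replicate block. Promoters are from RefSeq (GRCm38.p6) and positions from GENCODE M21 (GRCm38).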

Additional observations from a re-analysis of the deposited data

How the results depend on the processing

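All-gene counts moved by over 1.5 times without a filter (469 in ACT against N, 410 in ACT IL21 against N, 124 in ACT IL21 against ACT) and with the 2 pools alone (417 in ACT against N, 92 in ACT IL21 against ACT). With 1 library left out, the pool with 1 library being assumed to vary like the others, they ranged from 205 to 526, 75 to 728 and 0 to 81 in the same order, and transporter calls from 0 to 2 in ACT against N and 0 to 4 in ACT IL21 against N. In ACT IL21 against N transporter calls numbered 0 without a filter, 0 without the intensity trend and 4 with the 2 pools alone. In ACT IL21 against ACT they stayed at 0 in every alternative. Leaving out samples or the filter also changes the number of samples or of tested genes. The cause of these shifts was not tested. Quantile normalization moved the all-gene median of ACT IL21 against N by -0.15 to -0.05, and median-of-ratios rescaling by -0.10 to 0.00; the transporter median was then 0.103 and 0.225, and 15 of 22 symbols were above 0 in place of 18.

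Signs turned only for transporters that never passed in that comparison. With median-of-ratios rescaling and quantile normalization, ACT IL21 against N gave -0.086 and -0.16 for Slc38a9, -0.029 and -0.20 for Slc7a11 and -0.046 and -0.12 for Slc7a6, and ACT IL21 against ACT gave -0.048 and -0.074 for Slc38a9 and -0.016 and -0.058 for Slc7a5. With a pseudocount of 5, Slc38a9 was at 0.0089 in ACT against N. With 1 library left out, ranges that cross 0 were, in ACT against N, -0.030 to 0.63 for Slc36a1, -0.40 to 0.40 for Slc38a9, -0.31 to 0.61 for Slc43a2, -0.96 to 0.23 for Slc6a20b, -0.12 to 0.40 for Slc6a6 and -0.62 to 0.33 for Slc7a6os. In ACT IL21 against N they were -0.16 to 0.0997 for Slc38a6, -0.065 to 0.096 for Slc38a9, -0.19 to 0.72 for Slc6a20b, -0.17 to 0.016 for Slc7a1, -0.11 to 0.22 for Slc7a11, -0.012 to 0.13 for Slc7a6, -0.14 to 0.48 for Slc7a6os and -0.34 to 2.37 for Slc7a7. In ACT IL21 against ACT they were -0.043 to 0.35 for Slc36a4, -0.38 to 0.41 for Slc38a9, -0.38 to 0.38 for Slc3a2, -1.24 to 0.93 for Slc43a3, -0.14 to 0.38 for Slc6a6, -0.028 to 0.62 for Slc7a1, -0.34 to 0.43 for Slc7a5, -0.16 to 0.79 for Slc7a6os and -0.77 to 1.94 for Slc7a7.

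With the replicate block 784, 732 and 284 genes passed in ACT against N, ACT IL21 against N and ACT IL21 against ACT, with 0, 3 and 0 transporters. The labels share only the replicate numbers, and deviations of same-numbered libraries correlated across genes at 0.21 for N with ACT, -0.004 for N with ACT IL21 and 0.001 for ACT with ACT IL21, so the numbers were not taken as pairs. TPM hold no depth, which limits what low values can show.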
